A study of Mus musculus with 1 sample.

Results

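The 44 genes described here encode proteins that copy DNA or supply and accompany its copying. They were taken by name from a list, and all 44 were found among the 32285 genes counted. The sample was 1 library of single-cell RNA from gastric organoids of the mouse, which are epithelial cultures grown from stomach. The labels give the genotype as wild type, the treatment as none and the cell type as epithelial cell. Organoids were harvested on day 7 and taken apart with trypsin, and droplet sequencing then counted unique molecular identifiers (UMIs), where each UMI stands for 1 captured RNA molecule. A barcode counted as a cell when it had 500 or more genes and a mitochondrial share of UMIs no higher than 20%, which held for 1892 of 1991. Strain, sex and the number of animals are not given in the sources used here, and the other organoid genotypes that the series text names were not analysed here.

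DNA is copied once per cell cycle, in S phase. The origin recognition complex with Cdc6 and Cdt1 loads the ring-shaped Mcm helicase onto DNA in G1. Cdc45 and the GINS complex switch the helicase on, polymerases extend primers laid down by primase, and the Pcna clamp, which the Rfc complex loads, keeps them on the template. In many cell types the genes for these proteins are transcribed under E2F factors around the start of S phase. In the stomach epithelium, dividing cells lie mainly in the isthmus of the gland, and organoid cultures keep dividing cells.

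Promoter sequences describe the genes outside their counts. RefSeq promoter windows on GRCm38.p6, each from 250 bases before to 50 bases after a transcript start, were found for 37 of the 44 genes, in 45 windows. Windows were matched by symbol, and no window was used for Mcm4, Gins1, Gins2, Gins4, Prim2, Pole and Rfc2. The letters searched were TTTCCCGC, TTTCGCGC, TTTGGCGC and TTTGCCGC on both strands, as forms of the E2F motif, and matches may overlap. At least 1 of these 8-base matches lay in 15 of 45 windows (33.3%), against 744 of 32851 windows of all genes (2.26%). At least 2 matches lay in 6 of 45 windows (13.3%), against 0.0974% of all windows. CCAAT, searched on both strands, lay in 62.2% of the replication gene windows and 37.4% of all windows. A match describes the letters only, and no binding was measured.

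The 7 stretches below are shown because, among the genes with a match, they run from Clspn, with the highest share of its UMIs in the 2 clusters described later, to Pold1, with the lowest. Capitals mark the motif matches and lower case the bases around them, each read 5′ to 3′ on the strand of its gene.
Clspn: gcgtctggGCGCGAAAgctcgaac
Mcm5: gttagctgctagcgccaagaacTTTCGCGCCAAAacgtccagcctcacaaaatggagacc
Cdc6: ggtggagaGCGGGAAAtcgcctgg
Uhrf1: gagtcgggTTTCGCGCgcccaggc
Mcm3: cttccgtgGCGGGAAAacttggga
Mcm6: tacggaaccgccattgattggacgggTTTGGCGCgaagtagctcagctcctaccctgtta
Pold1: atcttgtgGCGGGAAAagc
The Mcm5 stretch holds 2 overlapping matches, one on each strand, and lies between genes at chr8:75109334-75109393 (plus strand). The Mcm6 stretch, also between genes, lies at chr1:128359719-128359778 (minus strand), and its window holds 3 matches in all. The Cdc6 stretch at chr11:98908005-98908028 (plus strand) and the Uhrf1 stretch at chr17:56304120-56304143 (plus strand) overlap annotated introns. The Clspn stretch at chr4:126556993-126557016 (plus strand), the Mcm3 stretch at chr1:20820278-20820301 (minus strand) and the Pold1 stretch at chr7:44548766-44548784 (minus strand) overlap annotated exons.

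The kept cells held 20118334 gene UMIs, with a median of 8512.5 per cell (range 890 to 47183), and there was no replicate library. Every interval given is therefore a 95% interval within this library. Those of levels, ratios and shares of UMIs cover counting error alone, while that of a share of cells treats cells as draws. None covers differences between libraries, and nothing was tested between cells. The epithelial label was met by Epcam in 96.6%, Krt8 in 97.9% and Krt18 in 99.6% of cells, while Cdh1 had a UMI in 52.1%. Of the markers of other cell types, the fibroblast genes Col1a2 and Dcn and the endothelial genes Cdh5 and Kdr had 0 UMIs (0 of 1892 cells, for which 3 counts give a limit of 0.159% on cells with a UMI, not on cells that express the gene). The other genes of those lists had few, with 1 UMI of Col1a1, 5 of Pdgfra in 5 cells and 3 of Pecam1 in 3 cells, and the muscle genes Acta2 and Myh11 had 1 and 3. Of the immune genes, Ptprc and Cd3e had 1 UMI each, Lyz2 had 80 UMIs in 9 cells, and Cd68, a lysosomal protein gene, had 196 UMIs in 162 cells (8.56%). Since no cell type that lacks replication genes by definition was present, the share of UMIs from free RNA could not be measured. Levels are in CPM, the UMIs of a gene per 1000000 gene UMIs of the cells it was summed over. Of the 44 genes, 12 have exons that overlap a counted gene on the opposite strand (Orc1, Orc6, Mcm7, Cdc45, Gins2, Pole, Rfc2, Rfc4, Rfc5, Fen1, Lig1 and Tk1), and whether counting used the strand is not given in the sources used here. Reads of Pcna and Tyms may also be shared with pseudogene copies, so the levels of all these genes are less certain.

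Most barcodes counted as cells had few UMIs of the 44 genes, and a small group of them had far more. The 44 genes together had 13474 UMIs, a summed level of 669.7 CPM (658 to 681). At least 1 such UMI was found in 95.5% of cells. After every cell was thinned to 3000 UMIs, which left out 57 shallower cells, 78.3% of 1835 cells had one (exact interval 76.4 to 80.2). That interval leaves out the draw of UMIs. Another draw had 75.3%, and the expected value over all thinning draws was 76.9%. The thinned sum had a median of 1 UMI, a mean of 1.94 and a highest value of 23. It was 0 in 398 cells (21.7%), against 14.3% if the same UMIs were spread evenly, and its variance was 2.83 times its mean. The 35 cells with at least 10 UMIs were 1.91% of cells and held 13.5% of the replication gene UMIs.

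Levels differed widely between roles. The sliding clamp and its loader had the highest summed level, 189 CPM over 6 genes, followed by nucleotide supply with 124 CPM over 5 genes. Chromatin and repair partners had 99.96 CPM, the helicase ring 67.2 CPM and origin recognition and loading 55.7 CPM. Polymerases and primase had 49.8 CPM, helicase activation 36.2 CPM, fragment joining 26.05 CPM and single-strand binding 21.8 CPM. Because the kit counts RNA 3′ ends, 1 UMI is 1 molecule whatever its length, and capture may still differ between genes. Of the 44 genes, 31 had at least 100 UMIs and 13 had fewer.

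Single genes spanned from 9 to 1504 UMIs. Rfc1, the large subunit of the clamp loader, had the highest level at 74.8 CPM and was found in 46.9% of cells. Dut, which removes dUTP so that uracil is kept out of DNA, followed with 1275 UMIs (63.4 CPM) in 34.9% of cells, with up to 25 in 1 cell. An even spread of the Dut UMIs over cells by depth would have reached 45.2% of cells. The histone mRNA binding protein Slbp (47.9 CPM), the origin subunit Orc6 (44.4 CPM) and the clamp Pcna (35.5 CPM) came next. At the other end were Orc1 with 9 UMIs, Gins3 with 19, Cdc45 with 27, Gins1 with 36 and Cdc6 with 47, in at most 40 cells each. The share of cells was below that of an even spread for 41 of 44 genes, and for 31 of the 31 with at least 100 UMIs, where 89.9% of all genes with that many UMIs were below it as well.

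Cells were grouped into 7 clusters from genes that included none of the 44, none of 52 other replication genes and none of 28 mitotic genes. Xist, the Y-linked genes Ddx3y, Uty, Eif2s3y and Kdm5d and all mitochondrially encoded genes were also left out. Other genes of the sex chromosomes could take part. The comparison asks whether replication gene RNA lies in particular cells. Cluster 6 (104 cells) and cluster 7 (63 cells) stood above the other 5 in the summed level of the 44 genes. They were set apart on that ground. Ratios and UMI shares of single genes of the 44 in these clusters therefore describe where the sum was high, and are no separate support for it. The shares over all genes given beside them come from genes that had no part in that choice. The genes that led cluster 6 by fold were Aspm, Dlgap5, Knl1, Ckap2 and Hmmr, which act at the mitotic spindle or kinetochore, and Aspm, Dlgap5, Knl1 and Hmmr are on the mitotic list. Those of cluster 7 were Cyba, Reg3g, Gm3776, Gsta2 and Gsta1, with the gastric genes Gkn3, Pgc and Tff1 among its first 10. Neither cluster was given a cell type name.

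Cluster 6 had a summed level of 1838 CPM (1766 to 1911), and cluster 7 had 1873 CPM (1789 to 1959). In clusters 1 to 5 it ran from 424 CPM in cluster 5 to 552 CPM in cluster 1, and it was 513 CPM (503 to 524) over these 1725 cells. The ratio to clusters 1 to 5 was 3.58 for cluster 6 (3.42 to 3.74) and 3.65 for cluster 7 (3.47 to 3.84). The ratio of cluster 6 to cluster 7 was 0.981 (0.924 to 1.04). The 2 clusters thus held the genes at sums that could not be separated by counting error. They were also deeper, with a median of 10963 UMIs per cell in cluster 6 and 14281 in cluster 7 against 8224 in clusters 1 to 5, and what part depth has in the ratios of CPM was not tested. At equal depth the mean thinned sum was 6.32 in cluster 6 and 5.80 in cluster 7, against 1.54 in clusters 1 to 5. Of the 35 cells with at least 10 thinned UMIs, 18 were in cluster 6, 14 in cluster 7 and 3 elsewhere. In clusters 1 to 5 the variance of the thinned sum was 1.29 times its mean.

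**Figure D1:**
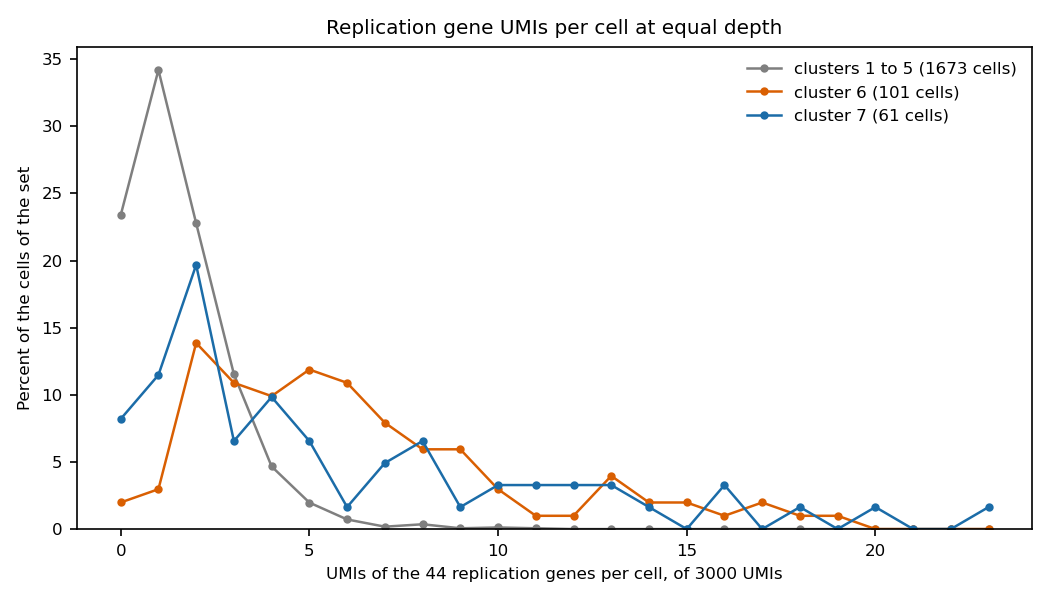
UMIs of the 44 replication genes per cell after thinning to 3000 UMIs (x axis) against the percent of cells of the set (y axis), for clusters 1 to 5 (1673 cells), cluster 6 (101 cells) and cluster 7 (61 cells). Clusters 1 to 5 peak at 1 UMI, while clusters 6 and 7 extend to 19 and 23 UMIs.

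Cluster 7 differed from the rest in sex-linked RNA. It held 69 of the 88 UMIs of the 4 Y-linked genes counted (Ddx3y, Uty, Eif2s3y and Kdm5d), and cluster 6 held 0. Xist, the X-linked RNA that female cells transcribe, had 83 UMIs in cluster 7, a level of 82.2 CPM (65.5 to 102), with a UMI in 27.0% of its cells. Its level was 492 CPM (482 to 502) in clusters 1 to 5, with a UMI in 78.1% of cells, and 585 CPM (545 to 628) in cluster 6, with one in 83.7%. The labels do not give the sex or number of source animals, so a difference in source and a difference between clusters cannot be told apart. Without cluster 7 the summed level over all cells was 606 CPM. Called doublets were few, at 12 of 1892 cells, with 1 in each of the 2 clusters.

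By gene, the 2 clusters together held 8.83% of cells and 11.7% of all gene UMIs but 32.3% of the replication gene UMIs. The share for single genes had a median of 38.5%, against 12.3% over all genes with at least 100 UMIs. It was over 50% for 9 of 44 genes, and for 5 of the 31 with at least 100 UMIs, where 0.936% of all such genes passed that mark. The highest shares were in Clspn (72.1%), the claspin adaptor of the replication checkpoint, and Cdc45 (70.4%), part of the active helicase. Mcm5 (64.4%), Cdc6 (59.6%), Uhrf1 (59.4%) and Mcm3 (55.7%) followed, and then Rrm2 (54.9%), Pole (52.7%) and Tk1 (51.9%). Cdc45 rests on 27 UMIs and Cdc6 on 47, so their shares have wide intervals. The share was under 25% for 10 of the 44 (9 of the 31, against 96.8% of all such genes). These were Rfc1 (15.2%), Gins4 (18.5%), Orc6 (19.4%), Pold1 (20%), Ung (20%), Rpa1 (20.6%), Pold2 (20.6%), Slbp (22.3%), Rpa3 (23.1%) and Prim2 (23.5%).

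**Figure D2:**
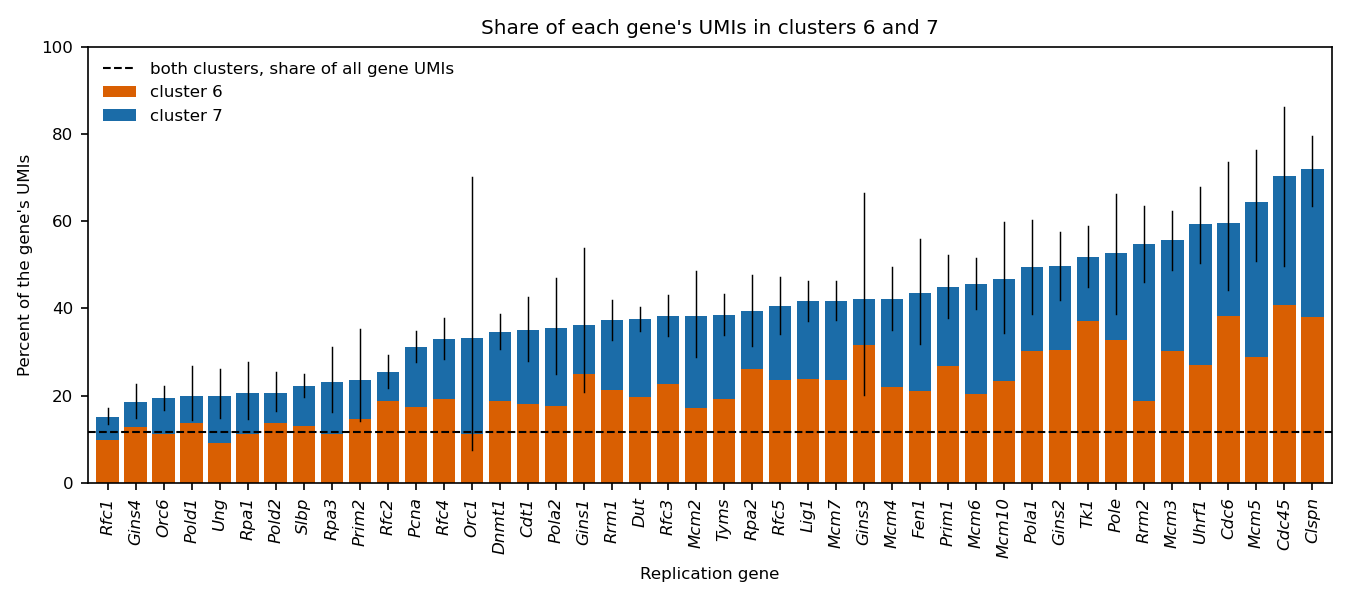
Percent of the UMIs of each replication gene found in cluster 6 and cluster 7 (stacked bars from 0), with 95% exact intervals of the sum and a dashed line at the 11.7% of all gene UMIs that both clusters hold. Genes run from Rfc1 at 15.2% to Clspn at 72.1%, all above the line, and the intervals of genes with few UMIs, such as Orc1 with 9, are wide.

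Against clusters 1 to 5, 43 of 44 genes were at least 1.5-fold higher in cluster 6, and 30 of the 31 with at least 100 UMIs, where 11.6% of all genes passed that fold. Ung, the uracil-DNA glycosylase, was just below it at 1.497. The median ratio was 4.91 over the 44 genes and 4.17 over the 31 with at least 100 UMIs, against 1.04 over all genes with at least 100 UMIs, the set behind each share of all genes here. In cluster 7, 41 of 44 genes passed (28 of the 31, against 21.6% of all genes), with a median ratio of 5.05 (4.48 over the 31) against 1.05. The others were Rfc1 (1.12), Gins4 (1.21) and Pold1 (1.38). No gene of the 44 was at least 1.5-fold lower in either cluster, against 6.93% of all genes in cluster 6 and 17.2% in cluster 7. The interval lay above 1 for 42 genes in cluster 6 (30 of the 31, against 15.2% of all genes) and for 36 in cluster 7 (27 of the 31, against 23.1%). It lay below 1 for 0 of the 44 in both, against 6.92% of all genes in cluster 6 and 14.5% in cluster 7.

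**Figure D3:**
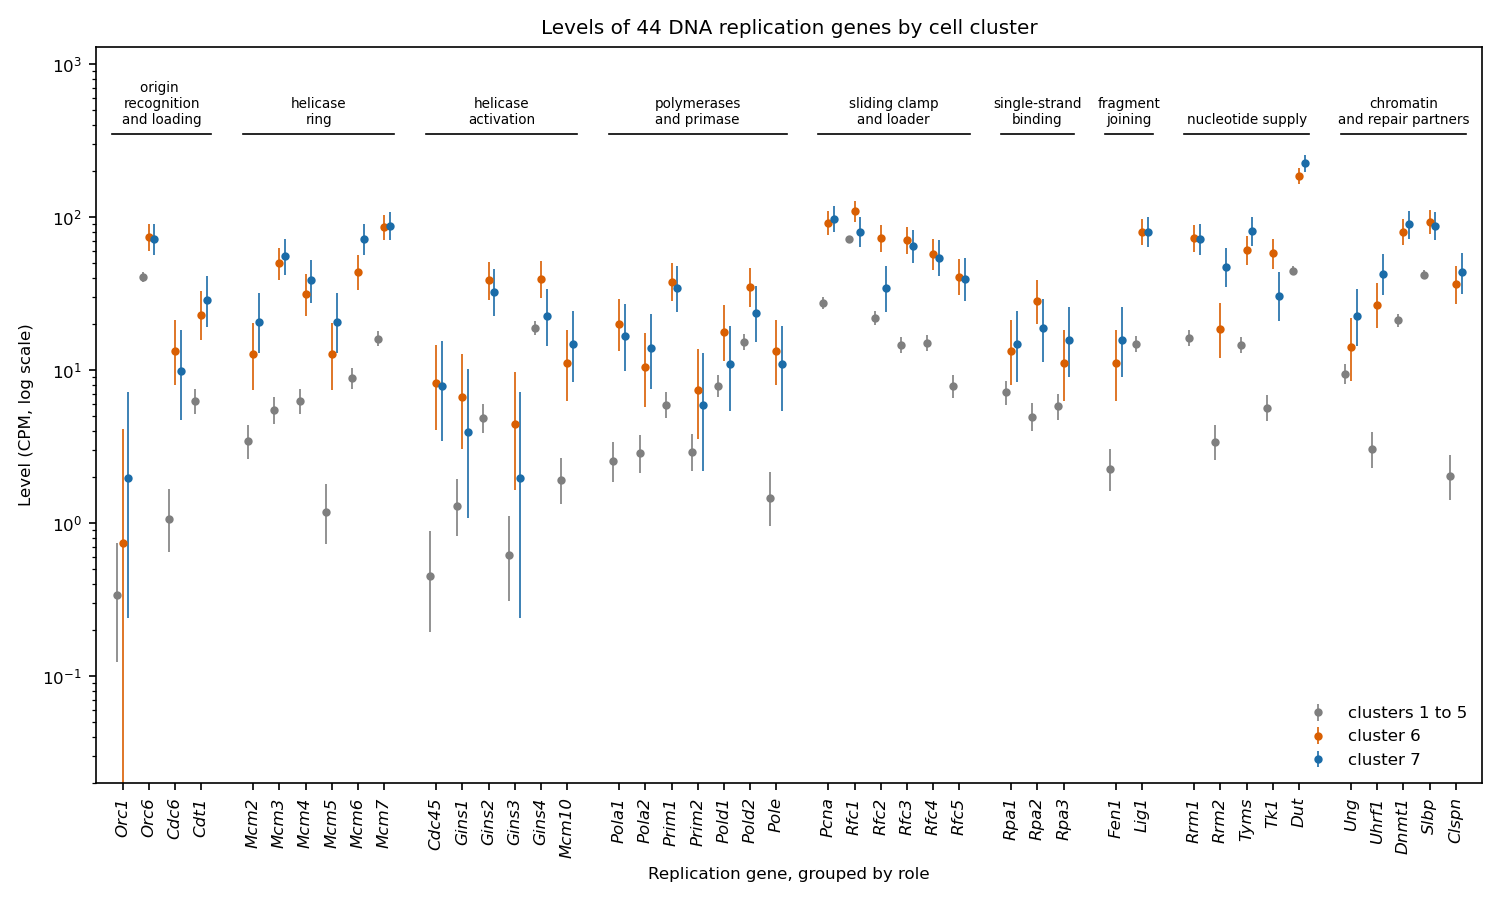
Level of each replication gene in CPM (log scale), in clusters 1 to 5, cluster 6 and cluster 7, with exact Poisson intervals, ordered by role. Most genes lie well above their level in clusters 1 to 5, while Rfc1 lies near it in cluster 7, and the intervals of Orc1, with 9 UMIs in all, overlap.

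The loading genes showed both patterns. Cdc6, the loading factor, had 18 UMIs in cluster 6 (13.4 CPM), 10 in cluster 7 (9.90 CPM) and 19 in clusters 1 to 5 (1.07 CPM). Its ratio was 12.5 (6.20 to 25.2) in cluster 6 and 9.26 (3.85 to 20.9) in cluster 7. Orc6, in contrast, was well represented everywhere, at 74.5 CPM, 72.3 CPM and 40.6 CPM, a ratio of 1.84 (1.47 to 2.27) and 1.78 (1.38 to 2.27). Cdt1, which brings the Mcm ring to origins, lay between them with ratios of 3.70 and 4.60. Orc1, the ATPase of the origin complex, had 1 UMI in cluster 6, 2 in cluster 7 and 6 elsewhere, and its ratios could not be separated from 1.

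The 6 helicase ring genes were the role with the largest ratio, 5.73 in cluster 6 (5.01 to 6.55) and 7.17 in cluster 7 (6.24 to 8.21). Mcm5 had 17 UMIs in cluster 6 (12.7 CPM), 21 in cluster 7 (20.8 CPM) and 21 in clusters 1 to 5 (1.18 CPM), ratios of 10.7 and 17.6. Mcm3 had 49.9 CPM, 55.5 CPM and 5.52 CPM, ratios of 9.05 and 10.1. Mcm7, the ring gene with the highest level, had 86.4 CPM, 88.1 CPM and 16.1 CPM. Mcm2, Mcm4 and Mcm6 had ratios of 3.69, 5.01 and 4.97 in cluster 6 and 6.06, 6.18 and 8.18 in cluster 7. Thus the 6 subunits of 1 ring were all higher, although their levels in clusters 1 to 5 ranged from 1.18 to 16.1 CPM.

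Among the genes that activate the helicase, Gins2 went from 4.84 CPM in clusters 1 to 5 to 38.7 CPM in cluster 6 and 32.7 CPM in cluster 7. Its partner in the GINS complex, Gins4, went from 18.9 CPM to 39.5 CPM and 22.8 CPM, a ratio of 2.09 (1.54 to 2.80) and 1.21 (0.755 to 1.84). Gins2 and Gins4 encode subunits of 1 complex, and their levels in clusters 1 to 5 were in the opposite order to their ratios. Cdc45 had 11, 8 and 8 UMIs in cluster 6, cluster 7 and clusters 1 to 5, a ratio of 18.2 (6.67 to 52.1) in cluster 6. Mcm10, which helps activate the helicase, had ratios of 5.84 and 7.76. Gins1 and Gins3 had ratios of 5.18 and 7.22 in cluster 6, and intervals that held 1 in cluster 7.

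The polymerase and primase genes differed in the size of their ratios. Pole, the catalytic subunit of the leading-strand polymerase, had 13.4 CPM in cluster 6, 10.9 CPM in cluster 7 and 1.46 CPM in clusters 1 to 5, ratios of 9.16 and 7.44. Pola1 and Pola2, subunits of the polymerase that extends primers, had ratios of 7.94 and 3.63 in cluster 6. The primase genes Prim1 and Prim2 had ratios of 6.43 and 2.54 there. In cluster 7 they had 5.86 and 2.03, and the interval of Prim2 held 1 (0.713 to 4.72). Pold1 and Pold2, of the lagging-strand polymerase, had ratios of 2.27 (1.41 to 3.51) and 2.28 (1.63 to 3.11) in cluster 6. In cluster 7 the intervals of Pold1 and Pold2 held 1.

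In the clamp and loader group, Pcna had 92.4 CPM in cluster 6, 98.0 CPM in cluster 7 and 27.7 CPM in clusters 1 to 5, ratios of 3.34 and 3.54. The small loader subunits Rfc3, Rfc4 and Rfc5 had ratios of 4.85, 3.80 and 5.24 in cluster 6 and 4.48, 3.61 and 5.06 in cluster 7. Rfc1 had only 1.52 (1.28 to 1.81) in cluster 6 and 1.12 (0.881 to 1.40) in cluster 7, and this most abundant gene of the 44 also had the lowest share of its UMIs in the 2 clusters. Rfc2 had 73.0 CPM in cluster 6 and 34.7 CPM in cluster 7. Of the 3 subunits that coat single-stranded DNA, Rpa2 had a ratio of 5.71 (3.799 to 8.45) in cluster 6, against 1.88 (1.08 to 3.09) for Rpa1 and 1.93 (1.04 to 3.33) for Rpa3. In cluster 7 the 3 intervals overlapped, at 3.799 (2.18 to 6.29) for Rpa2, 2.08 (1.13 to 3.56) for Rpa1 and 2.73 (1.51 to 4.65) for Rpa3. Lig1, which seals nicks, had ratios of 5.41 and 5.40, and the flap nuclease Fen1 4.96 and 7.04.

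Nucleotide supply had ratios of 4.69 (4.24 to 5.18) and 5.40 (4.85 to 5.99). Dut had 251 UMIs in cluster 6 (187 CPM), 228 in cluster 7 (226 CPM) and 796 in clusters 1 to 5 (44.8 CPM). Rrm1 and Rrm2, subunits of ribonucleotide reductase, had different patterns. Rrm1 had 73.0 CPM in cluster 6 and 72.3 CPM in cluster 7, while Rrm2 had 18.6 CPM and 47.5 CPM. Tk1, the cytosolic thymidine kinase, had the reverse order, 58.1 CPM and 30.7 CPM, against 5.69 CPM in clusters 1 to 5. Tyms, which makes dTMP, had ratios of 4.16 and 5.53.

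Among the chromatin and repair partners, Clspn had 49 UMIs in cluster 6 (36.5 CPM), 44 in cluster 7 (43.6 CPM) and 36 in clusters 1 to 5 (2.03 CPM), ratios of 18.0 (11.5 to 28.5) and 21.5 (13.5 to 34.4). Uhrf1, which reads hemimethylated DNA behind the fork, had ratios of 8.82 and 14.0. Dnmt1, the methyltransferase it recruits, was far more abundant at 21.2 CPM in clusters 1 to 5 and had ratios of 3.80 and 4.26. Slbp had 2.23 and 2.09.

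Between cluster 6 and cluster 7 the interval of the ratio held 1 for 37 of the 44 genes. It lay above 1 for 4 genes (4 of the 31 with at least 100 UMIs, or 12.9%, against 12.1% of all such genes), namely Rfc2 (2.11, 1.42 to 3.19), Tk1 (1.89, 1.23 to 2.97), Gins4 (1.73, 1.04 to 2.96) and Rfc1 (1.36, 1.03 to 1.81). It lay below 1 for 3 genes (3 of the 31, or 9.68%, against 12.2%), namely Rrm2 (0.392, 0.231 to 0.648), Mcm6 (0.608, 0.424 to 0.869) and Dut (0.828, 0.689 to 0.995). These shares are near those of all genes, so they are not a result about the 44. By role, the ratio was 0.800 for the helicase ring (0.681 to 0.940), 0.869 for nucleotide supply (0.766 to 0.987) and 1.19 for the clamp and loader (1.05 to 1.36), and the intervals of the other 6 roles held 1. At a clustering resolution of 0.3, 80 cells of cluster 6 and 60 of cluster 7 made up 1 cluster of 140, so the split between the 2 clusters depends on that setting.

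Of the 37 genes with a promoter window, the 15 with an E2F-type match had a median of 42.1% of their UMIs in clusters 6 and 7 (20 to 72.1). The 22 without had a median of 37.4% (15.2 to 70.4). The ranges overlapped almost wholly. Clspn and Pold1, the ends of the range among genes with a match, each have 1 match in their window.

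Cells were next ranked by 2 lists that share no gene with the 44, after thinning. The first is 52 other replication genes, such as Orc2, Dbf4 and Gmnn, and the second is 28 mitotic genes, such as Mki67 and Cdk1. Since sums are whole numbers, the tenth of cells with the highest sum began at 7 UMIs for the first list (112 cells, 6.104%), with 43 cells at 7 and 95 at 6. For the mitotic list it began at 4 UMIs (158 cells, 8.61%), with 20 cells at 4 and 37 at 3. Each class is a range of a score, not a cell type. Median depth was 9341 UMIs in the first class against 8678 in the other cells, and 11184.5 against 8473 in the mitotic class.

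In cells high for the other replication genes the summed level of the 44 was 1908 CPM, against 583 CPM in the other cells, a ratio of 3.27 (3.13 to 3.42). Of the 44 genes, 42 were at least 1.5-fold higher (29 of the 31 with at least 100 UMIs, against 12.4% of all genes), and 0 were as much lower (5.4% of all genes). The median ratio was 4.11 (3.67 over the 31), against 1.08 over all genes with at least 100 UMIs. Cdc6 had the highest ratio with 22 UMIs in the high cells and 25 in the rest, 12.6 (6.80 to 23.4). Uhrf1 (10.8), Clspn (9.40), Cdc45 (8.45), Pole (8.21) and Rrm2 (8.04) followed. Pold1 (1.26, 0.672 to 2.17) and Rfc1 (1.32, 1.09 to 1.59) were below 1.5. The interval held 1 for Orc1, Gins1, Gins3, Prim2, Pold1 and Rpa3.

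In mitotic-high cells the ratio of the summed level was 3.44 (3.31 to 3.57), from 1822 CPM against 530.2 CPM. All 44 genes were at least 1.5-fold higher (31 of the 31, against 12.9% of all genes), with a median of 4.22 (3.998 over the 31) against 1.08, and 4.46% of all genes were as much lower. Cdc45 had 20 UMIs in the high cells and a ratio of 23.6 (9.61 to 66.2), Clspn 15.5 (10.6 to 22.7), Cdc6 12.2 (6.57 to 23.1) and Pole 10.7 (6.07 to 19.0). The lowest were Rfc1 (1.53, 1.33 to 1.76), Ung (1.58, 1.05 to 2.30) and Orc6 (1.71, 1.43 to 2.04). Orc1, at 2.36 from 2 UMIs in the high cells, had an interval that held 1 (0.240 to 12.4).

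Both rankings drew on clusters 6 and 7, which held 51 of the 112 and 118 of the 158 cells. Among the 61 and 40 high cells outside those clusters, set against the other cells of clusters 1 to 5, the summed ratio was 1.68 (1.53 to 1.83) for the other replication list and 2.61 (2.39 to 2.83) for the mitotic list. When the cells of clusters 1 to 5 were thinned and ranked anew, 118 and 167 of them were called high. The summed ratio was then 1.46 (1.36 to 1.56) and 1.63 (1.54 to 1.72), and 10 and 15 of the 25 genes that then had at least 100 UMIs were at least 1.5-fold higher, against 5.01% and 4.33% of all genes. The cells carry multiplexing tags, described further on. Ranked anew among cells led by the tag CMO301, the counts were 23 and 24 of 24 (against 12% and 12.8% of all genes), and among those led by CMO302 they were 13 and 16 of 16 (against 7.28% and 9.54%).

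The 2 lists were partly separate. Of the cells, 56 were high for both, 56 for the other replication genes only, 102 for the mitotic genes only and 1621 for neither. This split was chosen after the values had been seen. The summed level was 512 CPM in cells high for neither (501 to 523) and 1053 CPM (972 to 1138) in those high for other replication genes only. It was 1428 CPM (1368 to 1491) in those high for mitotic genes only and 2640 CPM (2522 to 2764) in those high for both, which stood above the other 3. Origin recognition and loading genes had 86.6 CPM in the replication-only and 87.3 CPM in the mitotic-only cells. Nucleotide supply had 165 CPM and 284 CPM, with intervals that did not overlap, and 699 CPM in cells high for both. The intervals of replication-only and mitotic-only cells were also apart for helicase activation (46.6 CPM and 88.6 CPM). The same held for the clamp and loader (250 CPM and 359 CPM), and the intervals of the other roles overlapped.

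**Figure D4:**
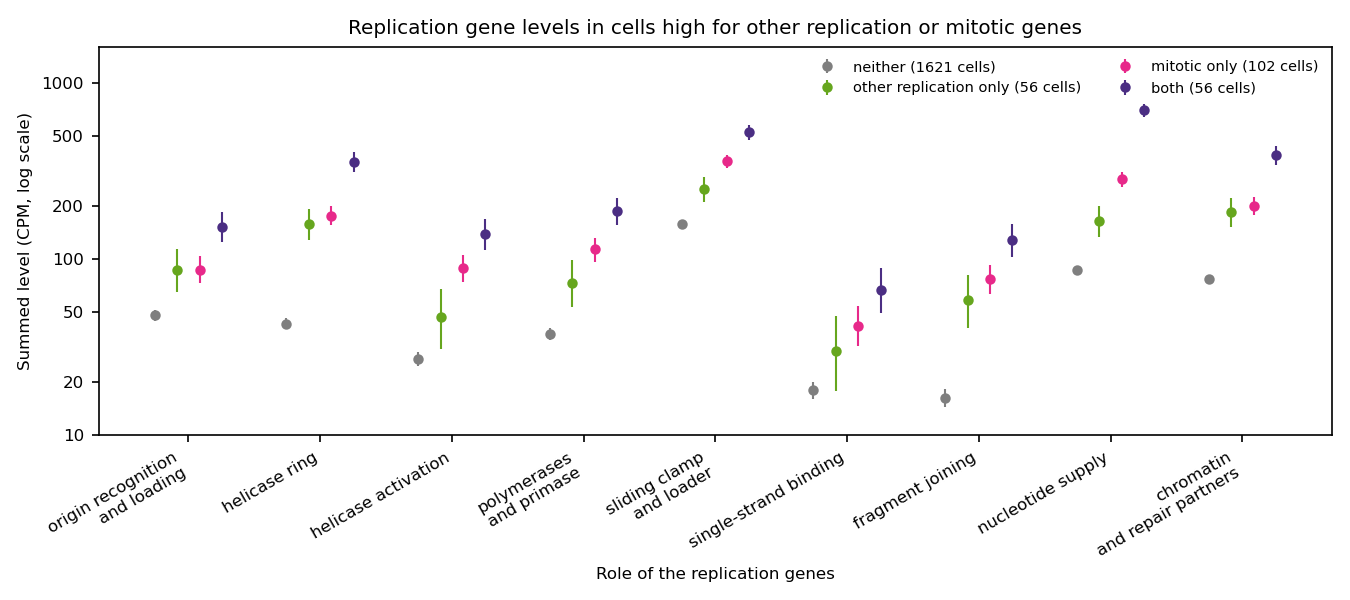
Summed level of each role in CPM (log scale) with exact Poisson intervals, in cells high for neither list, for other replication genes only, for mitotic genes only or for both. Cells high for both lie highest in every role, and cells high for neither lie lowest, although intervals of the smaller roles overlap.

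Among the other replication genes, 29 of 52 had at least 100 UMIs. In mitotic-high cells 23 of these 29 were at least 1.5-fold higher, against 12.9% of all genes with at least 100 UMIs, and 0 as much lower, against 4.46%. In cluster 6 the counts were 24 (against 11.6%) and 0 (against 6.93%), and in cluster 7 26 were higher (against 21.6%). The median ratios were 2.17, 2.08 and 2.67. Dbf4, the activator of the Cdc7 kinase that fires origins, had ratios of 5.60 in mitotic-high cells, 5.01 in cluster 6 and 4.08 in cluster 7. Gmnn, the inhibitor of Cdt1, had 2.80, 3.19 and 2.67, and Hells, a chromatin remodeller, 4.72, 4.14 and 7.76. Pold4, the small subunit of the lagging-strand polymerase, went the other way. At 279 CPM and in 84.6% of cells it was the most abundant of the list, and it had 289 CPM in clusters 1 to 5, 249.5 CPM in cluster 6 and 146 CPM in cluster 7. Its ratio in cluster 7 was 0.504 (0.425 to 0.594). Of the origin subunits, Orc2 had ratios of 1.34 in mitotic-high cells, 1.19 in cluster 6 and 1.51 in cluster 7, Orc3 1.66, 1.61 and 1.88, and Orc4 1.49, 1.25 and 2.19. In cluster 7 the interval lay above 1 for Orc3 (1.14 to 2.95) and Orc4 (1.48 to 3.15) and held 1 for Orc2.

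Covariation across cells was weak for pairs of genes and larger for sums. Correlations are Pearson coefficients over 1835 thinned cells, which share 1 library, and they are given as descriptions. With the sum of the other 43 genes, the median coefficient was 0.170, and it was above 0 for 43 of 44 genes. It was above 0 for 31 of the 31 with at least 100 UMIs, with a median of 0.195. Of the other genes with that many UMIs, 62.3% had a coefficient above 0 with the sum of the 44, and their median was 0.0097. The order of the genes changed with the draw of UMIs. Dut had 0.327 and in another draw 0.349, Gins2 0.297 and 0.277, Uhrf1 0.290 and 0.207, Clspn 0.270 and 0.239, and Mcm3 0.230 and 0.2999. Prim2 had -0.018 and -0.0019. Without the 12 called doublets, and with a new draw, Gins2 was at 0.165 and Prim2 at 0.086. The part of the doublets and that of the draw cannot be told apart there. Over 946 pairs the median was 0.031, and 113 pairs exceeded 0.1. These included 68 of the 465 pairs in which both genes had at least 100 UMIs, against 0.128% of the pairs of all other such genes. The 3 highest pairs with at least 100 UMIs for each gene were lower in another draw, from 0.288 to 0.098 for Mcm6 with Uhrf1, from 0.248 to 0.155 for Tk1 with Dut and from 0.219 to 0.057 for Gins2 with Uhrf1. Among genes with at least 100 UMIs, pairs within a role had a median of 0.067 and pairs between roles 0.045. In clusters 1 to 5 alone, over 1673 cells, the median with the other 43 genes was 0.034, and 19 pairs exceeded 0.1 (3 of the 465, against 0.148%). Sparse counts hold coefficients near 0, so these small values do not show whether 2 genes vary together.

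Sums of whole roles gave larger coefficients. The helicase ring correlated with the chromatin and repair partners at 0.276, with nucleotide supply at 0.255 and with the clamp and loader at 0.235. In another draw these were 0.268, 0.389 and 0.190. In clusters 1 to 5 the same pairs were at 0.077, 0.052 and 0.031. The sum of the 44 genes correlated with the sum of the 52 other replication genes at 0.428 and with that of the 28 mitotic genes at 0.548. In clusters 1 to 5 these were 0.154 and 0.303.

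**Figure D5:**
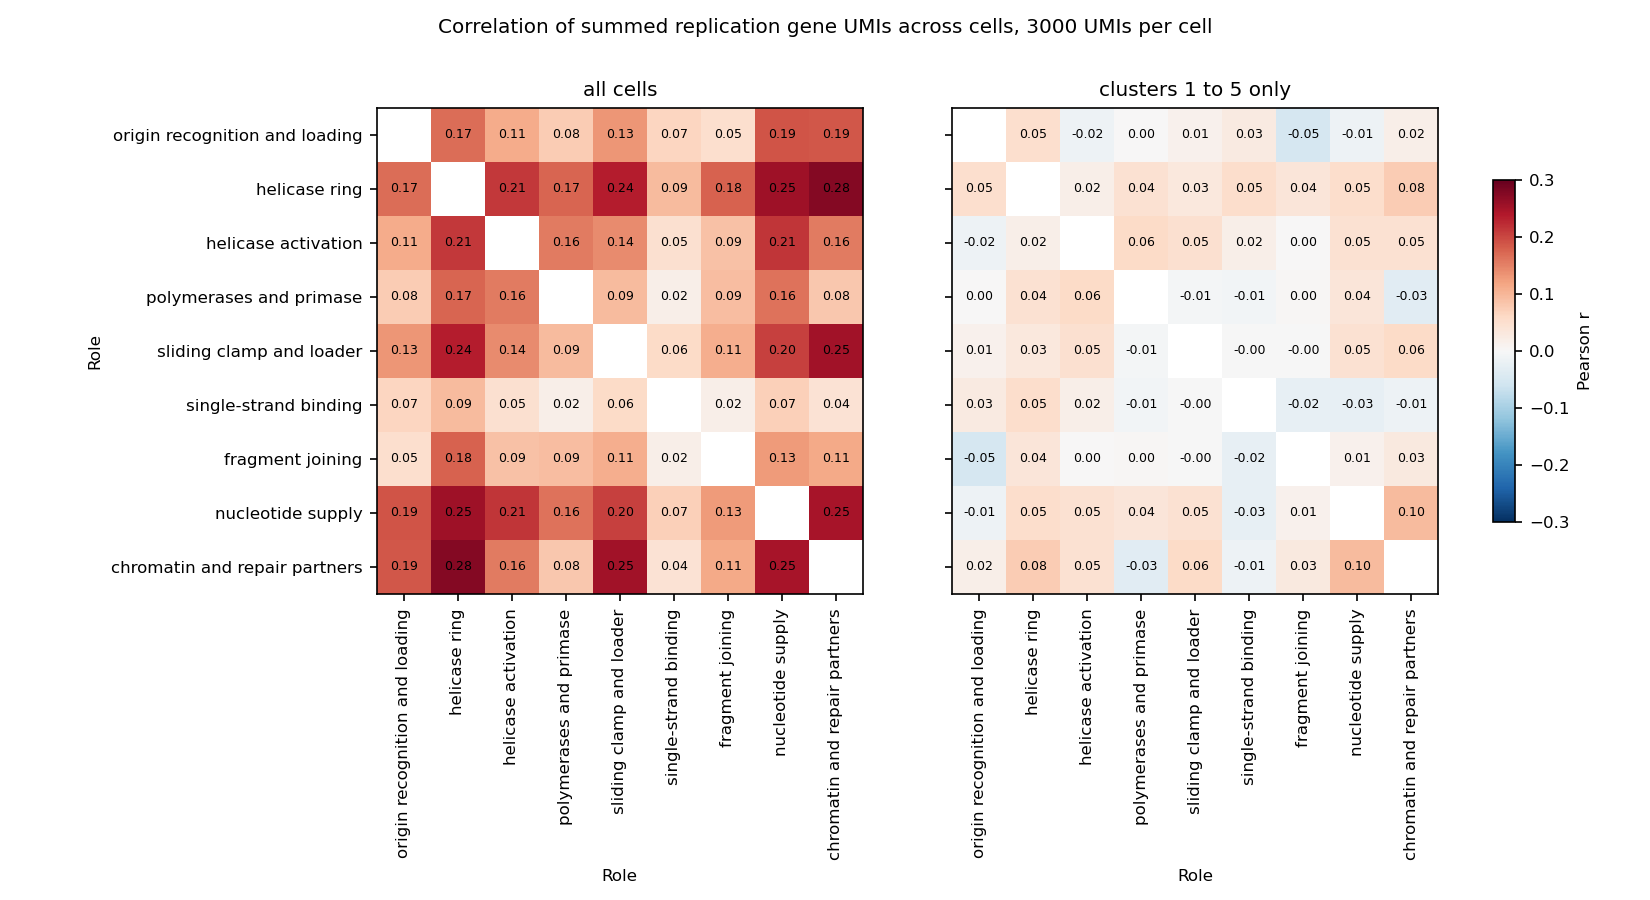
Pearson correlation of the summed replication gene UMIs of each pair of roles, over all 1835 thinned cells (left) and over the 1673 of clusters 1 to 5 (right). Red is positive and blue negative. The left panel reaches 0.28 for the helicase ring with the chromatin and repair partners, while in the right panel no pair exceeds 0.10.

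The genes outside the list whose pattern was most like the summed replication genes were sought among 5002 genes with at least 0.05 UMIs per thinned cell. The highest coefficients were in Pclaf (0.491), a Pcna-binding factor, Top2a (0.435), the topoisomerase that separates daughter DNA, Hmgb2 (0.407), Stmn1 (0.400) and Hist1h2ap (0.386). Cks1b (0.373), Cdk1 (0.364), Cenpf (0.358), Hist1h1b (0.358) and Tpx2 (0.344) followed. In another draw 7 of the 10 were again among the first 10, and Cks1b (0.296), Cdk1 (0.315) and Cenpf (0.326) were not. The median over the 5002 genes was 0.011 and the 99th percentile 0.186. In clusters 1 to 5, Pclaf had 0.076, Top2a 0.183, Cks1b 0.191 and Hist1h1b -0.003.

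The matrix also counts 12 multiplexing tags, oligonucleotides that mark suspensions of cells before pooling, and 2 of them led the cells. CMO301 led in 1062 cells (56.1%) and CMO302 in 830, and the labels do not tie either to a group. The summed replication genes had 704 CPM in CMO301 cells and 627 CPM in CMO302 cells, a ratio of 1.12 (1.09 to 1.16). The interval lay above 1 for 9 of the 44 genes (8 of the 31 with at least 100 UMIs, against 3.93% of all such genes), and below 1 for 0 (3.85%). Pole (2.14), Uhrf1 (2.08), Rrm2 (1.57) and Clspn (1.55) had the largest ratios of the 9. CMO301 led 64.4% of cells in cluster 6 and 60.3% in cluster 7, and without these clusters the summed ratio was 0.990 (0.950 to 1.03).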

How the data were processed

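Counts are UMIs per gene and barcode in 1 mouse library, as the authors deposited them without normalization. Per the file headers, the matrix is output of Cell Ranger 6.1.2. The series' design text gives GRCm38/mm10 as the genome. The annotation and strand setting of the counting are not given in the sources used here. CPM were computed from the deposited counts over the kept cells, which held 20118334 gene UMIs, and tag UMIs were left out. Doublets were called with Scrublet in scanpy 1.11.5 (score threshold 0.134) and kept, and leaving them out was an alternative. Clusters came from 2000 variable genes, 30 principal components, 15 neighbours and Leiden clustering (leidenalg 0.10.2) at resolution 0.6. Intervals are exact Poisson for CPM, Clopper-Pearson for shares and conditional binomial for ratios, and with 1 library no test was made. For covariation and for ranking, cells were thinned to 3000 UMIs without replacement, and genes counted against a background had at least 100 UMIs. Gene positions came from GENCODE release M21 on GRCm38.

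The genes named are the 44, those of the other replication list with a UMI in at least 10% of cells, the 10 genes most like the sum and the 5 leading genes of a cluster. Others, such as Ptprc, serve as markers, and Gkn3 was named from the first 10 leading genes of cluster 7. One result of the other replication list is not reported here. The 44 genes and the lists were chosen with earlier results of these data known. Alternatives were other cell filters, depths, draws, resolutions, shares of cells called high and minimum counts. The comparison of cells was tested on simulated data drawn for 7533 genes, 200 of them changed in 150 of 1892 cells. In it, genes raised 4-fold had a median ratio of 3.66 in cells chosen by a list, 100% of them passed 1.5-fold, and 7.90% of unchanged genes did so in either direction.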

Additional observations from a re-analysis of the deposited data

How the results depend on the processing

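The results were recomputed under 19 alternatives. Leaving out clusters 6 and 7 with or without a new ranking, the expectation over all draws and the share without thinning were chosen after seeing the data. Where cells were left out, the rest were thinned and ranked anew unless stated, so values from thinned counts also hold a new draw. No paired analysis was possible because only a single library was analysed. For the same reason no replicate could be left out.

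The summed level moved from 669.7 CPM to 606 CPM without the cluster with most Y-linked UMIs, 704 CPM in CMO301 cells, 627 CPM in CMO302 cells, 641.7 CPM as a mean over cells and 513 CPM without clusters 6 and 7. The share of cells with a replication gene UMI follows depth and draw. It was 63.0% at 2000 UMIs, 90.5% at 5000, 95.5% without thinning and 75.3% in another draw. With fewer cells and a new draw, it was 75.7% under the stricter cell filter, 75.9% without doublets and 75.1% without clusters 6 and 7. In these values the part of the draw and that of the cells left out cannot be told apart.

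The median correlation of a gene with the others was 0.110 without the Y-linked cluster, 0.222 at 5000 UMIs, 0.299 on the unthinned log scale and 0.034 without clusters 6 and 7.

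For cells high for other replication genes the summed ratio ran from 1.46 without clusters 6 and 7 and 2.38 in the top 20% of cells to 3.98 in the top 5%. It was 2.78 without the Y-linked cluster, 3.66 in CMO301 and 2.54 in CMO302 cells, 3.03 and 3.49 at 2000 and 5000 UMIs and 3.60 in another draw. With the high cells as first drawn, leaving out clusters 6 and 7 gave 1.68 for this list and 2.61 for the mitotic list. The count of genes past the fold was 13 of the 16 tested in CMO302 cells and 10 of the 25 tested without clusters 6 and 7. For mitotic-high cells the ratio was 3.21 without the Y-linked cluster, 3.82 in CMO301 cells, 3.60 at 5000 UMIs, 3.29 in another draw, 2.90 in the top 20% and 1.63 without clusters 6 and 7. The count was 16 of 16 in CMO302 cells and 15 of 25 without clusters 6 and 7. The cluster 6 ratio was 3.91 in CMO301 cells and 3.78 at resolution 0.3, where clusters 6 and 7 shared 1 cluster and so 1 value.

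Directions reversed without clusters 6 and 7 for the tag ratio (0.990) and for Mcm10 (0.829), Pcna (0.956), Rfc2 (0.914), Rpa1 (0.669) and Ung (0.862) in cells high for other replication genes. They also reversed for Mcm2 (0.900), Gins3 (0.825) and Rpa3 (0.986) in mitotic-high cells. Rpa1 was at 0.698 in CMO302 cells for the first list, and Ung at 0.553 in the top 5% for the mitotic list. The cause was not tested. All these ratios have intervals that hold 1. With fewer cells, fewer genes reach 100 UMIs. Genes under 100 UMIs, such as Orc1 and Gins3, limit what can be said of them at this depth.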
